A study of Mus musculus with 7 samples.

Results

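The 40 genes described here drive DNA replication and cell division and were followed singly and as a sum in single-cell RNA sequencing of 7 mouse liver samples. They were picked by symbol, not by level, and are 40 of the 32285 genes in each count matrix. All 40 were found in all 7 matrices. By role they comprised 6 genes for cyclins and Cdk1, 9 for origin licensing, 4 for the replication fork and nucleotide supply, 2 for chromosome structure, 5 for the centromere and spindle checkpoint, 4 for mitotic kinases and their partner Birc5, 8 for the spindle and cytokinesis and 2 for mitotic exit. The 15 genes for origin licensing and its control, the replication fork, nucleotide supply and cyclin E are called replication genes here. The other 25 are called mitotic genes, among them Ccna2, which also acts in S phase.

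The samples came from the ABC-Myc line, a mouse model of hepatoblastoma, the most common liver cancer of early childhood. ABC-Myc mice carry Cre under the albumin enhancer and promoter, which acts in hepatocytes and their precursors, and a human MYC transgene that a CAG promoter drives once Cre has removed a floxed stop cassette. The strain was C57BL/6J, and normal livers came from littermates that lacked one or both alleles. The ages of these animals are not given in the sources used here. The study's naming makes NEJ634, NEJ687, NEJ709 and NEJ723 tumors and the remainder (NEJ638, NEJ654 and NEJ677) healthy livers. The labels, however, give all 7 libraries the same disease state, and the description of NEJ709 carries the name of NEJ634. The labels therefore define 0 groups, no library was treated as a replicate of another, and no test between libraries was made. Values are given by library or as a median over libraries, which is a description only. Medians over the 5 libraries with erythroid-like cells join NEJ638 with NEJ634, NEJ687, NEJ709 and NEJ723. Intervals are exact 95% Poisson limits for levels and Clopper-Pearson limits for shares, and cover counting error only.

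Proliferating cells switch these genes on in waves. The licensing factors Cdc6 and Cdt1 load the Mcm2 to Mcm7 helicase on origins in G1. Cyclin E (Ccne1, Ccne2) drives entry into S phase. Pcna then clamps the polymerase to DNA, and ribonucleotide reductase (Rrm1, Rrm2) and thymidylate synthase (Tyms) supply nucleotides. Cyclins A and B with Cdk1 then bring the cell into mitosis, where centromere proteins, kinases and motor proteins separate the chromosomes, until Cdc20 and Ube2c direct the destruction of the mitotic cyclins. In liver, resting hepatocytes hold these genes at a low level, whereas fetal liver and sites of blood formation contain dividing erythroblasts and granulocyte precursors.

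The timing of both sets is known to depend on short promoter sequences. The E2F sites of replication genes are released when the retinoblastoma protein is phosphorylated, and the CHR element of mitotic genes binds the MuvB complex. RefSeq windows (GRCm38.p6, from 250 bases before to 50 after the annotated start) were found for 32 of the 40 genes, 12 replication and 20 mitotic, and a gene with more than 1 window was counted once, with a match in any of them. The CHR letters TTTGAA stood on either strand at 15 of the 20 mitotic genes (75%), at 1 of the 12 replication genes (8.33%) and at 20.2% of all 27025 genes with a window. The CCAAT box stood at 18 mitotic genes (90%), at 8 replication genes (66.7%) and at 41.1% of all genes. Any of the E2F forms TTTGGCGC, TTTCCCGC, TTTGCCGC and TTTCGCGC stood at 6 replication genes (50%), at 1 mitotic gene (5%, Cdk1) and at 2.60% of all genes. All 15 mitotic genes with the CHR letters also had a CCAAT box. A match of letters is a description and not evidence of binding. The 7 windows printed here were chosen after the values were seen: 2 helicase genes and 5 mitotic genes whose levels peaked at different shares of haemoglobin in erythroid-like cells below. Capitals mark CHR, CCAAT and E2F letters on either strand, and adjoining or overlapping matches run together.
Mcm3, chr1:20820263-20820562, minus strand: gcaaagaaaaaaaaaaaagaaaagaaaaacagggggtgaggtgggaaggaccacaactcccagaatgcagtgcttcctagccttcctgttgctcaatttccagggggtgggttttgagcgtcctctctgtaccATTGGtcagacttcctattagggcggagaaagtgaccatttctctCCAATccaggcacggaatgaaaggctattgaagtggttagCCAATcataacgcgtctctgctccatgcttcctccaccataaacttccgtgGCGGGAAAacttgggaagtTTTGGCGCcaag
Mcm6, chr1:128359656-128359955, minus strand: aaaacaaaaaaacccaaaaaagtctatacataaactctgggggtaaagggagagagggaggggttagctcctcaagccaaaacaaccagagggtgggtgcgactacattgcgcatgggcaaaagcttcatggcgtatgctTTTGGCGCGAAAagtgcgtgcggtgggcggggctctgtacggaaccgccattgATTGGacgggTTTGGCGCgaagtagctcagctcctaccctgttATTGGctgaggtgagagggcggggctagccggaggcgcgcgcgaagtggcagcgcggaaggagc
Ccnb1, chr13:100786437-100786736, minus strand: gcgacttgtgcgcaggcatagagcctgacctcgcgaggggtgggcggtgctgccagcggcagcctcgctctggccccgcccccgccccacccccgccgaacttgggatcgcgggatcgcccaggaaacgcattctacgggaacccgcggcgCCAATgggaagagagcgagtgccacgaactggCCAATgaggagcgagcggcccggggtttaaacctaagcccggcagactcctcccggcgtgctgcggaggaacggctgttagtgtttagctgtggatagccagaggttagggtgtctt
Ccnb2, chr9:70421505-70421804, minus strand: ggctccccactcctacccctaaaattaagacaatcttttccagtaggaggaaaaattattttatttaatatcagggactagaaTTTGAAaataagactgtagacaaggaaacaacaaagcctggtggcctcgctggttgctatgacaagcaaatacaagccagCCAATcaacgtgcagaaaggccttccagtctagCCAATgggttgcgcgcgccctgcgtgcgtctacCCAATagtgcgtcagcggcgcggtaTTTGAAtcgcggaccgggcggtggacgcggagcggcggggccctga
Cenpa, chr5:30666636-30666935, plus strand: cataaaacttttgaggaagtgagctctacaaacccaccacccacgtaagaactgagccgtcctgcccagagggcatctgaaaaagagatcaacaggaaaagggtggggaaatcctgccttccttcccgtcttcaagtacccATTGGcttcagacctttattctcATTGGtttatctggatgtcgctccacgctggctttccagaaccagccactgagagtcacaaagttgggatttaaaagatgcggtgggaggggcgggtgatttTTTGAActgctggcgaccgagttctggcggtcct
Cenpf, chr1:189688037-189688336, minus strand: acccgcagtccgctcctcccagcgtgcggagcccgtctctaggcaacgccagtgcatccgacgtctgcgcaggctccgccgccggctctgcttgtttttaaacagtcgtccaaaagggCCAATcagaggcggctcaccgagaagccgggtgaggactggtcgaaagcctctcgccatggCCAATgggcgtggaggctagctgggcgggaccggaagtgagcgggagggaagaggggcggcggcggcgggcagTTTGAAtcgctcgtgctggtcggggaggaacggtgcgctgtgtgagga
Ube2c, chr2:164769679-164769978, plus strand: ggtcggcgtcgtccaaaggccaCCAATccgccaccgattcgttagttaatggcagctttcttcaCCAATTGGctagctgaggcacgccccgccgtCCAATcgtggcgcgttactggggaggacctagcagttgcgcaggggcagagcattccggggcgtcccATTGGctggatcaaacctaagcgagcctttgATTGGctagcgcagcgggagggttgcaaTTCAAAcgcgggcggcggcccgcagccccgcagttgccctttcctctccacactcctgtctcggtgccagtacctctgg
Mcm3 and Mcm6 carried E2F letters and no CHR letters, whereas 4 of the 5 mitotic windows printed carried CHR letters, that of Ccnb1 carried none, and none of the 5 carried E2F letters.

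Cells had been freed with collagenase and loaded on the 10x Chromium system, which counts captured RNA molecules by unique molecular identifiers (UMIs). The libraries held between 40214395 and 132485391 UMIs. From all barcodes, 72734 cells were analysed, between 6716 in NEJ638 and 17008 in NEJ634, with a median depth between 2113 UMIs per cell (NEJ654) and 4610 (NEJ687). Levels are given as CPM, the UMIs of a gene or set per 1000000 UMIs of the cells pooled. Free RNA was read in each library from barcodes of low rank and is called the ambient profile. NEJ709 and NEJ634 stood apart. In NEJ709, 91.7% of cells, and in NEJ634, 42.8%, fell in pools whose profile overlapped the ambient profile by over 0.8; these near-ambient cells were kept in library totals and left out of named cell types. The ambient barcodes of NEJ634 reached 952 UMIs, above the 500 UMIs asked of a cell. Libraries also shared barcodes: 1840 of the 72734 cells carried a barcode that was kept in another library, and these cells held 4.53% of the UMIs of the 40 genes, from 2.19% in NEJ634 to 7.14% in NEJ654, 7.63% in NEJ723 and 9.02% in NEJ677.

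Over all cells, the sum of the 40 genes was 5468 CPM (interval 5448 to 5487) in NEJ687, 3895 (3882 to 3909) in NEJ723, 3276 (3262 to 3291) in NEJ634, 3059 (3044 to 3075) in NEJ709, 1587 (1568 to 1605) in NEJ638, 995 (982 to 1009) in NEJ654, and lowest, at 614 (605 to 624), in NEJ677. No neighbours in this order overlapped in counting error, and the highest library was 8.90 times the lowest. Per UMI other than haemoglobin and mitochondrial, NEJ709 stood at 4811 CPM and NEJ634 at 3612, so that the order of these libraries turned. The ambient profile held the same genes at 3789 CPM in NEJ687, 2700 in NEJ634, 2551 in NEJ709, 1814 in NEJ723 and 1554 in NEJ654, and at 814 (NEJ677) and 667 (NEJ638). Cells thus stood above ambient by 2.38 times in NEJ638, 2.15 times in NEJ723, 1.44 times in NEJ687, 1.21 times in NEJ634 and 1.20 times in NEJ709, and below it, at 0.640 and 0.755 times, in NEJ654 and NEJ677. With haemoglobin and mitochondrial UMIs left out of both totals the order changed: NEJ723 led at 2.40 times, followed by NEJ687 (1.59), NEJ638 (1.28), NEJ634 (1.11) and NEJ709 (1.04), and NEJ654 and NEJ677 stayed below, at 0.635 and 0.756 times. The ambient level itself depended on the barcodes read: without those that were cells in another library it was 495 CPM in NEJ677, below its cells, and 1366 CPM in NEJ654, still above its cells. How much of each library's level is free RNA was not tested.

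**Figure D1:**
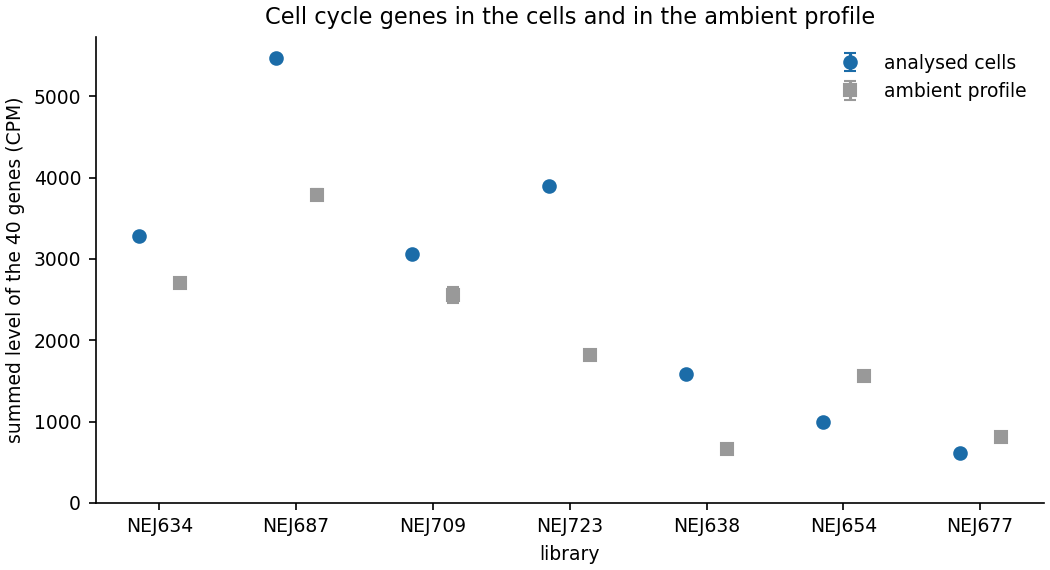
Summed level of the 40 cell cycle genes in each library, in CPM on a linear axis, for all analysed cells and for the ambient profile, with exact 95% Poisson limits. Cells range between 614 CPM (NEJ677) and 5468 (NEJ687) and lie below the ambient profile in NEJ654 and NEJ677.

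Nearly all of the 40 genes followed the library order at both ends. NEJ687 was highest for 38 of 40, the exceptions being the centromere protein gene Cenpf and the cytokinesis motor gene Kif20a, which were highest in NEJ723. NEJ677 was lowest for 39, the exception being Cdt1 at 10.6 CPM in NEJ677 against 10.4 in NEJ654. The shares of all genes highest in NEJ687 or lowest in NEJ677 are not given, so these counts describe the 40 genes without a background. Mki67, the gene of the Ki-67 proliferation antigen that coats mitotic chromosomes (ENSMUSG00000031004, chromosome 7, 135689784 to 135716361, GENCODE M21 on GRCm38), stood at 618 CPM in NEJ687, 403 in NEJ723, 368 in NEJ709, 362 in NEJ634, 68.5 in NEJ638, 57.6 in NEJ654 and 31.0 in NEJ677. By value, the widest gap between neighbours in this order lay between NEJ634 and NEJ638. Pcna (ENSMUSG00000027342, chromosome 2, 132249162 to 132253314) was spread less, at 261 CPM in NEJ687, 217 in NEJ634, 201 in NEJ709, 198 in NEJ638, 192 in NEJ723, 96.9 in NEJ654 and 70.4 in NEJ677. Here NEJ638 lay among the high libraries. Top2a, the topoisomerase that untangles sister chromosomes (ENSMUSG00000020914, chromosome 11, 98992943 to 99024189), stood at 238, 204, 192, 156, 108, 45.6 and 28.3 CPM in NEJ687, NEJ723, NEJ634, NEJ709, NEJ638, NEJ654 and NEJ677.

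Rrm2, the regulated subunit of ribonucleotide reductase, had the widest spread over libraries, 33.9 times, from 252 CPM in NEJ687 to 7.44 in NEJ677. The narrowest was that of Kif23, a kinesin of the central spindle, 2.43 times, from 37.2 CPM in NEJ687 to 15.3 in NEJ677. Within the other roles, the gene with the highest median over libraries was Cdk1 for cyclins and their kinase (14.6 to 118 CPM), Mcm7 for licensing (21.3 to 144), Cenpa, the centromeric histone, for the centromere (59.3 to 201), Birc5, the survivin subunit of the Aurora B complex, for kinases (25.1 to 412), Nusap1, a microtubule bundler, for the spindle (16.8 to 151) and Ube2c, the ubiquitin-conjugating enzyme of the anaphase-promoting complex, for mitotic exit (39.6 to 599). In each of these ranges NEJ677 was the lowest and NEJ687 the highest library. The checkpoint kinase gene Bub1 had the lowest median over libraries, 12.7 CPM, between 1.76 in NEJ677 and 24.3 in NEJ687. The sum of the 15 replication genes was 0.746 of that of the 25 mitotic genes in NEJ677, 0.716 in NEJ638, 0.622 in NEJ654, 0.564 in NEJ634, 0.491 in NEJ687, 0.466 in NEJ709 and 0.435 in NEJ723.

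Cell types were set by marker genes after clustering without the 40 genes and without other cell cycle genes, 197 in all, so that these genes did not define a type. Whether division still shaped the clusters through other genes was not tested. Of 45 clusters, 36 received a name, and a class was described in a library where it held at least 20 cells. The erythroid-like class, red cell precursors with the transcription factors Gata1 and Klf1 and the haem enzyme Alas2 among its 12 markers, was present in 5 libraries with 230 cells in NEJ634, 3424 in NEJ687, 506 in NEJ709, 6623 in NEJ723 and 107 in NEJ638. All 12 markers were over 2-fold higher there than in the other classes in each of these libraries, and none was at 0. The 9 such cells in NEJ654 and 7 in NEJ677 were too few for a value.

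The erythroid-like class had the highest sum of the 40 genes in 5 of 5 libraries. It stood at 9820 CPM (9665 to 9977) in NEJ634, 8174 (8138 to 8211) in NEJ687, 7807 (7502 to 8122) in NEJ638, 6379 (6301 to 6457) in NEJ709 and 5439 (5414 to 5465) in NEJ723. These values were 3.64, 2.16, 11.7, 2.50 and 3.0 times the ambient level of the same library. The next class was promyelocyte-like cells in NEJ634, NEJ687, NEJ709 and NEJ723, lower by 1.77, 1.48, 1.39 and 1.16 times, and myelocyte-like cells in NEJ638, lower by 2.59 times. Per UMI other than haemoglobin and mitochondrial, the same classes came next and were lower by 3.31, 2.81, 3.33, 2.59 and 6.32 times. With each library clustered on its own, erythroid-like cells of NEJ638 stood at 1092 CPM instead of 7807, and the class was highest in 4 of 7 libraries. As a mean over cells, which gives shallow cells the weight of deep ones, the class stayed highest in 4 of 5 libraries: in NEJ723 it stood at 3399 CPM, below promyelocyte-like cells. Mature neutrophil-like cells were the lowest class in all 5. In NEJ654 and NEJ677 the highest classes were promyelocyte-like and T/NK-like cells, an order that changed with the processing. With every barcode over 500 UMIs, erythroid-like cells were highest in all 7 libraries, these included. They were highest in 6 libraries with no doublet removal, at Leiden resolution 2 and with cell cycle genes kept in the clustering. Promyelocyte-like cells of NEJ654 stood at 780 CPM with cell cycle genes kept in the clustering, and without shared barcodes hepatocyte-lineage-like cells were its highest class. As a mean over cells promyelocyte-like cells were the highest class of NEJ677, at 1687 CPM against 938 in T/NK-like cells. Erythroid-like cells contributed 63.6% of the UMIs of the 40 genes in NEJ687 and 57.6% in NEJ723, where they made up 44.2% and 53.2% of cells. They contributed 16.7% in NEJ709, 8.61% in NEJ638 and 7.53% in NEJ634, from 3.60%, 1.59% and 1.35% of cells.

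**Figure D2:**
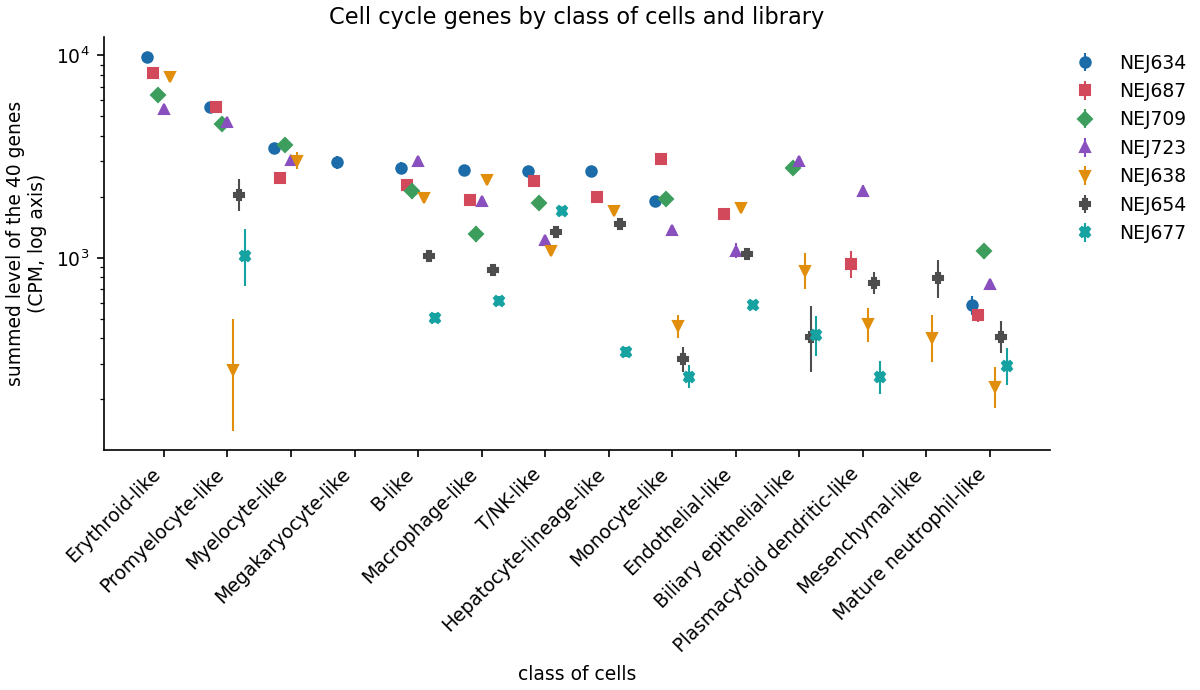
Summed level of the 40 genes by cell class and library, in CPM on a log axis, with exact 95% Poisson limits; each point is the pool of 1 class in 1 library of at least 20 cells. Erythroid-like cells are highest in the 5 libraries that hold them, at 5439 to 9820 CPM, and mature neutrophil-like cells lie at 230 to 1076.

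Most of the 40 genes took part in this difference. Fold was taken as the CPM of a class over the median CPM of the other named classes of that library, with 5 CPM added to both. In erythroid-like cells 35 of 40 genes were over 2-fold higher in NEJ634, where 5.43% of all genes tested were, 38 in NEJ687 (5.59% of all genes), 23 in NEJ709 (5.66%), 26 in NEJ723 (3.74%) and 39 in NEJ638 (6.48%). The median log2 difference of the 40 genes was 1.48, 1.81, 1.14, 1.23 and 2.62 in this order of libraries, beside -0.37, -0.30, -0.69, -0.35 and -0.47 for all genes tested. Leaving out NEJ634 and NEJ709, the median count was 38 of 40. With a separate clustering of each library the median count was 13, and the class then took in cells of high haemoglobin content that are described below. Without haemoglobin and mitochondrial UMIs in the total it was 40 of 40. That total raises the level of every other gene in a class rich in haemoglobin. The share of all genes over 2-fold is not given for it, so this count is not set apart from other genes.

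Among the cyclins and Cdk1, all 6 genes passed 2-fold in NEJ634, NEJ687, NEJ723 and NEJ638, and 5 in NEJ709. The median log2 difference over libraries was 1.86 for Ccnb1 and Ccnb2, the mitotic cyclins, 1.71 for Ccna2, which acts in S phase and G2, 1.59 and 1.56 for Ccne1 and Ccne2, and 1.42 for Cdk1. Cdk1 stood at 163 CPM in NEJ634, 158 in NEJ687, 105 in NEJ709, 123 in NEJ723 and 98.3 in NEJ638, each over 2-fold.

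The licensing genes split by library. All 9 passed 2-fold in NEJ634, NEJ687 and NEJ638, but only 2 in NEJ709 and 3 in NEJ723. The Mcm3 to Mcm7 helicase genes passed in 3 of 5 libraries each. Mcm7 stood at 224 CPM in NEJ634, 181 in NEJ687, 187 in NEJ638, 119 in NEJ723 and 100 in NEJ709. Gmnn, which encodes geminin, the inhibitor of Cdt1 that blocks a second round of licensing, passed in 5 of 5 (median log2 1.22), as did Cdc6 (1.94). Of the fork and nucleotide genes, Rrm2 passed in all 5 at 453, 436, 216, 220 and 441 CPM in NEJ634, NEJ687, NEJ709, NEJ723 and NEJ638 (median log2 2.33). The medians of Mcm3, Mcm6 and Pcna turned to -0.31, -0.29 and -0.67 with a separate clustering of each library. Pcna passed in 2 of 5, at 417, 341, 218, 229 and 450 CPM in the same order, with a median log2 difference of 0.73; the comparison classes of Pcna were also high, up to 401 CPM in macrophage-like cells of NEJ638. Without haemoglobin and mitochondrial UMIs in the total, which raises the other genes of this class together, the median of Pcna was 1.78.

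Of the 40 genes, the largest median differences were those of the mitotic genes Ube2c and Mki67. Ube2c stood at 1037, 1015, 674, 634 and 735 CPM in NEJ634, NEJ687, NEJ709, NEJ723 and NEJ638, a median log2 difference of 2.58. Mki67 stood at 1598, 1098, 1251, 718 and 888 CPM (2.47), Nusap1 at 396, 258, 333, 204 and 564 CPM (2.37), and Birc5 at 663, 648, 373, 450 and 498 CPM (2.17). All 4 passed 2-fold in every one of the 5 libraries. Prc1, which bundles the central spindle (2.17), the spindle assembly factor Tpx2 (2.02), the mitotic kinase Plk1 (1.98), Cenpf (1.97), the spindle proteins Hmmr (1.94) and Dlgap5 (1.92), the kinesins Cenpe (1.72) and Kif11 (1.74) and the kinase Aurka (1.59) followed. Top2a passed in 4 of 5 libraries, at 489, 307, 354, 251 and 491 CPM (1.17).

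A few members differed less. Cenpa passed in 3 of 5 libraries, at 240, 230, 149, 202 and 222 CPM (median log2 1.0), and Kif20a in 3 of 5, at 27.0, 24.9, 22.8, 18.8 and 28.5 CPM (1.06). Bub1, at 33.4, 29.7, 23.0, 21.1 and 53.9 CPM, and Cdc20, the activator of the anaphase-promoting complex, passed in 2 of 5 (0.79 and 0.95). Kif23, at 76.5, 53.5, 62.9, 43.1 and 79.2 CPM, and the checkpoint kinase gene Bub1b passed in 1 of 5 (0.82 and 0.65). With a separate clustering of each library the medians of Cenpa, Kif23 and Bub1b turned to -0.19, -0.23 and -0.10. Without haemoglobin and mitochondrial UMIs in the total, which raises the other genes of this class together, those of Kif23 and Bub1b were 1.67 and 1.62.

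Within the erythroid-like class the genes were not evenly spread over cells. After thinning every cell to 500 UMIs, the least any cell held, at least 1 UMI of the 40 genes was seen in 59.6% of erythroid-like cells in NEJ634, 55.7% in NEJ687, 44.9% in NEJ709, 41.2% in NEJ723 and 54.2% in NEJ638; before thinning the shares were 90.0%, 89.7%, 86.8%, 80.9% and 71.0%. The cells held a median of 5508, 5436, 7472, 4248 and 2624 UMIs before thinning. Draws of 500 UMIs from the ambient profile would give at least 1 such UMI in 74.1%, 85.0%, 72.1%, 59.7% and 28.4% of cells, so that this share was below background in the first 4 libraries. At least 3 UMIs were seen in 41.7% of erythroid-like cells in NEJ634 (35.3 to 48.4), 37.3% in NEJ687 (35.7 to 38.9), 27.9% in NEJ709 (24.0 to 32.0), 20.5% in NEJ723 (19.6 to 21.5) and 40.2% in NEJ638 (30.8 to 50.1). The ambient profile would give 15.4%, 29.5%, 13.7%, 6.39% and 0.479%, and mature neutrophil-like cells gave 0.556%, 1.08%, 1.82%, 0.701% and 0 of 320 cells, which allows up to 1.15%. The variance over the mean of the thinned counts was 4.56 to 5.76 in these classes and 1.02 to 3.07 in mature neutrophil-like cells. Many cells with none and many with several thus made up one class.

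The clusters of the class differed accordingly. A cluster in which haemoglobin took 25% to 39% of UMIs held the 40 genes at 16008 CPM in NEJ634, 13239 in NEJ687, 16206 in NEJ709, 13426 in NEJ723 and 13057 in NEJ638. A cluster with 61% to 71% haemoglobin held them at 2660, 2270, 3019, 1058 and 1024 CPM, and the clusters above 75% at 188 to 699 CPM. Because haemoglobin UMIs dilute all others, the cells were next binned by haemoglobin share, and the 40 genes were counted per 1000000 UMIs that were neither haemoglobin nor mitochondrial. Haemoglobin accumulates as an erythroblast matures, and the final cells leave the cycle before they lose their nucleus. The share is a range and not a type; 312, 360, 436 and 1095 of the 10906 erythroid-like cells lay within 2 points of the limits at 20%, 40%, 60% and 80%.

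In NEJ634 the sum was 19227 CPM of other UMIs at under 20% haemoglobin, 23937 at 20 to 40%, 20411 at 40 to 60%, 6349 at 60 to 80% and 3151 above 80%. In NEJ687 it was 13757, 20813, 23698, 4983 and 3429 in the same bins. In NEJ709 it was 15346, 24002, 16026, 3896 and 1998. In NEJ723 it was 13576, 20618, 15138, 2584 and 2151. These bins held between 23 cells (NEJ634, under 20%) and 2607 (NEJ723, 60 to 80%). Depth changed with the bin. Other UMIs per cell were 12408, 12195, 4858 and 7281 at under 20% in NEJ634, NEJ687, NEJ709 and NEJ723. Above 80% they were 597, 555, 894 and 654. In NEJ709 the median was 1083 UMIs at under 20% and 10914 at 20 to 40%. The part of depth in these differences was not tested. In each of these 4 libraries the level was lower in both bins over 60% haemoglobin than at under 20%, and the highest bin was 20 to 40% in NEJ634, NEJ709 and NEJ723 and 40 to 60% in NEJ687. NEJ638 had bins of at least 20 cells from 40% on, at 24026, 15329 and 2913 CPM. On this scale the ambient profile stood at 3251 CPM in NEJ634, 4470 in NEJ687, 4629 in NEJ709, 2223 in NEJ723 and 1586 in NEJ638, so that the bin over 80% lay below ambient in NEJ687 and NEJ709, as did the bin at 60 to 80% in NEJ709. In NEJ634 and NEJ723 the counting intervals of the bin over 80%, 2546 to 3856 and 2057 to 2248 CPM, held the ambient level.

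Replication genes were low from a smaller haemoglobin share on than mitotic genes. The ratio of replication to mitotic genes was 0.659, 0.455, 0.068, 0.056 and 0.175 from the lowest to the highest haemoglobin bin in NEJ634. It was 0.710, 0.487, 0.182, 0.090 and 0.163 in NEJ687, 0.405, 0.324, 0.090, 0.044 and 0.167 in NEJ709, and 0.593, 0.338, 0.138, 0.164 and 0.223 in NEJ723. In all 4 the ratio at 40 to 60% haemoglobin was lower than in both bins under 40%, although the sum of all 40 genes in that bin was still 15138 to 23698 CPM. NEJ638 gave 0.334 at 40 to 60% and 0.033 at 60 to 80%.

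**Figure D3:**
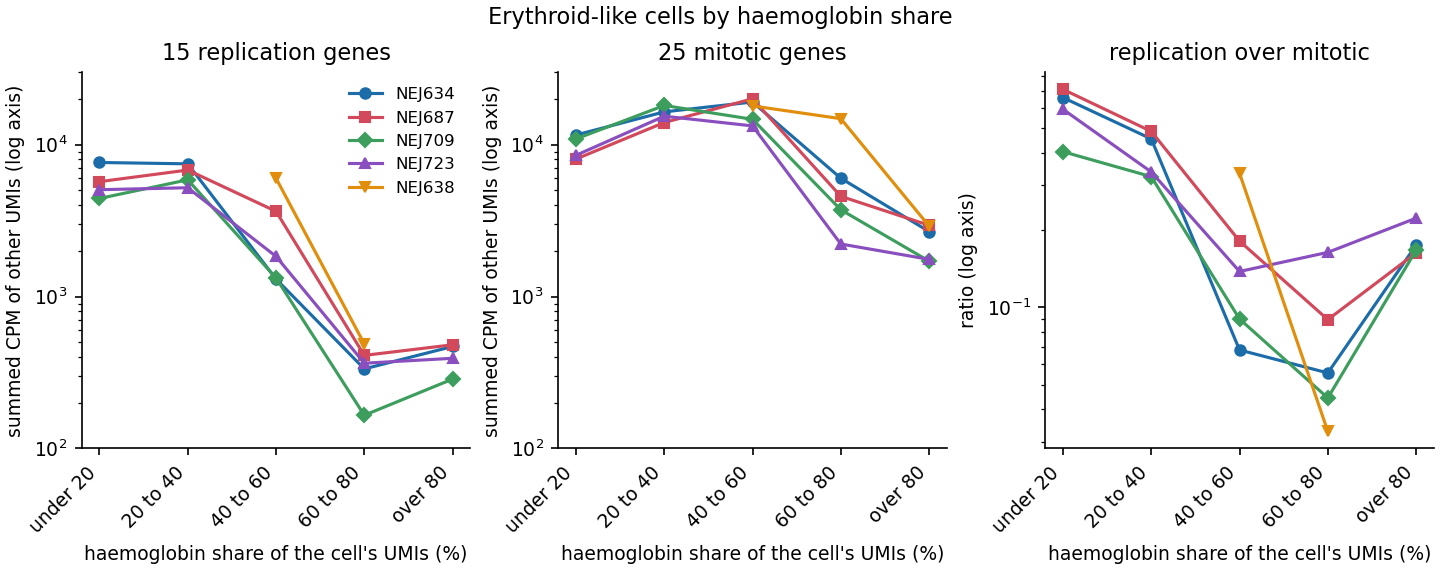
Level of the 15 replication genes, level of the 25 mitotic genes and their ratio against the share of haemoglobin UMIs per erythroid-like cell, in 5 libraries; levels are CPM of UMIs that are neither haemoglobin nor mitochondrial, all axes of values are log scaled, and bins hold at least 20 cells. The ratio drops from 0.405 to 0.710 at under 20% haemoglobin to 0.068 to 0.182 at 40 to 60% in the 4 libraries with both bins.

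Gene by gene, the highest bin varied with the library. By the median over NEJ634, NEJ687, NEJ709 and NEJ723, 6 of the 15 replication genes had their highest bin at under 20% haemoglobin and 9 at 20 to 40%. Of the 25 mitotic genes 1, Kif20a, was highest at under 20%, 9 at 20 to 40% and 15 at 40 to 60%. In NEJ634, NEJ687, NEJ709 and NEJ723, 14, 24, 9 and 5 mitotic genes were highest at 40 to 60%. At 20 to 40% they numbered 8, 1, 16 and 20 in the same order. Replication genes highest at under 20% numbered 9, 5, 2 and 9, and at 20 to 40% 6, 9, 13 and 6. Kif20a was highest at under 20% in NEJ634 alone. None of the 40 genes was highest above 60% in any of the 4 libraries. The share of all genes with their highest level in each bin is not given. These counts therefore do not set the 40 genes apart from other genes. Mcm3 (ENSMUSG00000041859, chromosome 1, 20802968 to 20820312), whose promoter is printed above, was highest at under 20% in all 4, at 540 CPM of other UMIs in NEJ634, 424 in NEJ687, 317 in NEJ709 and 298 in NEJ723. Pcna was highest at 20 to 40% in all 4, at 1301, 1032, 983 and 832 CPM, and stood at 66.8, 60.4, 25.5 and 62.2 CPM at 60 to 80%. Mki67 stood at 4283, 2925, 4808 and 2806 CPM at 20 to 40% and at 3600, 3795, 3384 and 2484 at 40 to 60%.

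Ccnb1, Cenpa, Cenpf and Ube2c were highest at 40 to 60% in all 4 libraries, and Ccnb2 in NEJ634, NEJ687 and NEJ709. Cenpf stood there at 1171, 1100, 1176 and 1016 CPM in NEJ634, NEJ687, NEJ709 and NEJ723, and Cenpa at 898, 743, 602 and 723. Ube2c (ENSMUSG00000001403, chromosome 2, 164769898 to 164778822) stood at 3773, 4077, 2383 and 2453 CPM in this bin. Above 80% haemoglobin Ube2c still held 1207, 2057, 1032 and 890 CPM, and 1456 in NEJ638, where the ambient profile on the same scale held 264 CPM in NEJ634, 431 in NEJ687, 577 in NEJ709, 210 in NEJ723 and 127 in NEJ638. Its level at 20 to 40% was a median of 1.88 times that above 80%, beside 3.89 times for Nusap1 and at least 6.87 times for each of the other 38 genes.

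**Figure D4:**
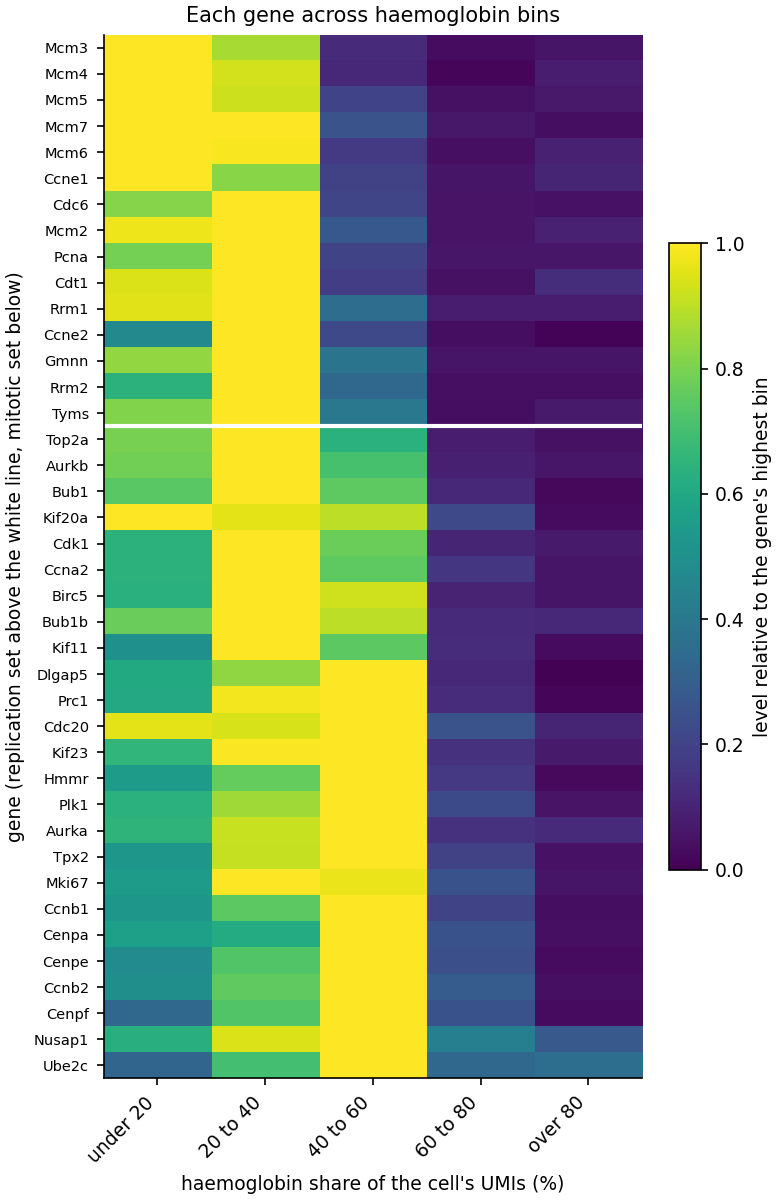
Heat map of the 40 genes over 5 bins of haemoglobin share in erythroid-like cells, as the median over NEJ634, NEJ687, NEJ709 and NEJ723 of the level relative to the highest bin of each gene; replication genes lie above the white line and mitotic genes below it. The replication genes are highest in the 2 bins under 40%, 15 of the 25 mitotic genes at 40 to 60%, and Ube2c keeps more of its highest level above 80% than any other gene.

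A further cluster of haemoglobin-rich cells met no list of markers closely enough for a name. It held 1373 cells in NEJ638 and 830 in NEJ677, with 86.4% and 91.8% haemoglobin, and 553 near-ambient cells in NEJ654 with 86.5%. The 40 genes summed there to 243 CPM (225 to 262) in NEJ638, 144 (132 to 157) in NEJ677 and 227 (206 to 250) in NEJ654. Counted per UMI other than haemoglobin and mitochondrial it was 3571, 1968 and 1826 CPM in the same order, beside an ambient profile at 1586, 962 and 1759 CPM. The cluster also held 30 cells of NEJ634, 73 of NEJ687 and 33 of NEJ723. They stood at 2331, 3246 and 1986 CPM on this scale, each below the ambient level of 3251, 4470 and 2223 CPM. Erythroid-like cells over 80% haemoglobin in NEJ638 stood at 2913 CPM on this scale.

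Promyelocyte-like cells followed erythroid-like cells in NEJ634, NEJ687, NEJ709 and NEJ723. Promyelocytes make the granule proteases Elane and Prtn3 and myeloperoxidase, myelocytes the later granule proteins Ngp, Camp and Ltf, and mature neutrophils no longer divide. The sum in promyelocyte-like cells was 5551 CPM in NEJ634 (129 cells), 5533 in NEJ687 (457), 4602 in NEJ709 (37) and 4708 in NEJ723 (389). Myelocyte-like cells of these libraries stood at 3468, 2474, 3590 and 3040 CPM, and mature neutrophil-like cells at 584, 519, 1076 and 745. Each library thus had the same order, and promyelocyte-like cells were 9.50 (8.52 to 10.6), 10.7 (9.95 to 11.4), 4.28 (3.90 to 4.69) and 6.32 (6.01 to 6.64) times mature neutrophil-like cells. Of the 40 genes 39, 39, 40 and 40 were higher in the first, as were 57%, 64.3%, 64% and 59.6% of all genes tested. Promyelocyte-like cells stood at 2.06, 1.46, 1.80 and 2.60 times ambient and myelocyte-like cells at 1.28, 0.653, 1.41 and 1.68 times; without haemoglobin and mitochondrial UMIs in either total the ratios were 1.75, 1.26, 1.03 and 2.18, and 1.14, 0.570, 0.809 and 1.45. Monocyte-like cells of NEJ687, at 3076 CPM, stood above its myelocyte-like cells. The cells named promyelocyte-like changed with the processing. In NEJ634 the class joined 96 cells at 6006 CPM and 33 cells of another cluster at 1433 CPM, and its level was 1438 CPM with every barcode over 500 UMIs. The median ratio over all 7 libraries, 5.03, was 1.88 with no doublet removal. Depth differed with the class: the median was 5475, 26574, 33835 and 22313 UMIs in promyelocyte-like cells and 2625, 1940, 3482 and 2639 in mature neutrophil-like cells, and its part in the difference was not tested.

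In the remaining libraries the class was small. In NEJ638, 5 of the 8 promyelocyte markers were at 0 in the 25 cells so named and 3 were over 2-fold higher, so the label goes against most of its markers. The 40 genes summed to 279 CPM in these cells. Myelocyte-like cells (34) stood at 3020 CPM there and mature neutrophil-like cells at 230. In NEJ654 and NEJ677 promyelocyte-like cells stood at 2054 CPM (29 cells) and 1020 CPM (22 cells), 5.03 (3.90 to 6.49) and 3.49 (2.40 to 5.06) times mature neutrophil-like cells. Of the 40 genes 32 and 19 were higher in the first, on 120 and 40 UMIs of the 40 genes in the promyelocyte-like cells. The share of all genes was not read there, so these counts carry no result about the 40 genes. In NEJ677 Kif23 alone held 154 of the 293 CPM of mature neutrophil-like cells. Of the promyelocyte-like cells 14 in NEJ654 and 9 in NEJ677 carried barcodes that were also kept in another library, and they held 40.8% and 75% of the UMIs of the 40 genes in the class. Without them under 20 cells remained in each, so no level is given. The median ratio to mature neutrophil-like cells was 5.67 without NEJ638 and 7.91 over NEJ634, NEJ687, NEJ709 and NEJ723. In NEJ634, NEJ687, NEJ709 and NEJ723 promyelocyte-like cells stood at 5568, 5526, 4592 and 4676 CPM without shared barcodes.

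Promyelocyte-like cells held high levels of licensing genes in several libraries. Over 2-fold higher were 19 of 40 genes in NEJ634 (11% of all genes tested), 33 in NEJ687 (12%), 24 in NEJ709 (17.7%), 30 in NEJ723 (9.47%), 22 in NEJ654 (14.2%) and 13 in NEJ677 (14.1%). Among them the licensing genes numbered 9, 9, 7, 9, 7 and 2 of 9. In the 25 cells of NEJ638, most of whose markers go against the name, 3 genes passed (13.9%). The class held only 120 UMIs of the 40 genes in NEJ654, 40 in NEJ677 and 11 in NEJ638. Few UMIs decided each gene's fold there, and these counts are not comparable with those of the deeper libraries. The median log2 difference of the 40 genes was 0.93, 1.36, 1.07 and 1.26 in the first 4 libraries, beside 0.14, 0.09, 0.28 and 0.07 for all genes. Mcm7 stood at 186, 207, 187 and 196 CPM in promyelocyte-like cells of NEJ634, NEJ687, NEJ709 and NEJ723, and at 15.9, 9.34, 15.4 and 16.6 CPM in mature neutrophil-like cells. Replication genes were 0.753, 0.669, 0.667 and 0.687 of mitotic genes in these cells, against 0.394, 0.425, 0.269 and 0.363 in erythroid-like cells of the same libraries. The erythroid-like ratio pools bins that differ widely: at under 20% haemoglobin it was 0.710 in NEJ687, above the 0.669 of promyelocyte-like cells. In NEJ634, NEJ709 and NEJ723 it was 0.659, 0.405 and 0.593 in that bin, each below promyelocyte-like cells of the same library.

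**Figure D5:**
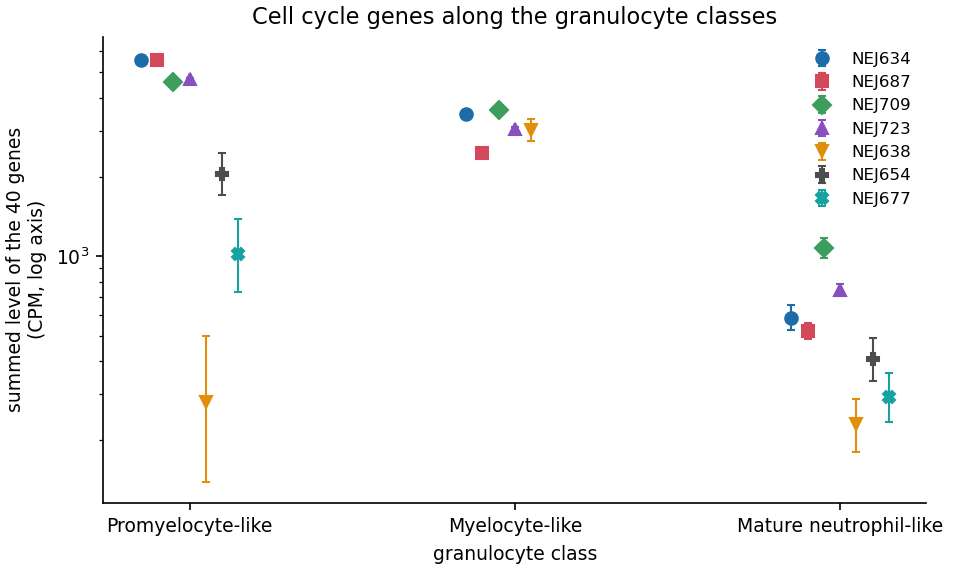
Summed level of the 40 genes in promyelocyte-like, myelocyte-like and mature neutrophil-like cells of each library, in CPM on a log axis, with exact 95% Poisson limits; classes of at least 20 cells are plotted. Levels descend from 4602 to 5551 CPM in promyelocyte-like cells to 519 to 1076 in mature neutrophil-like cells in NEJ634, NEJ687, NEJ709 and NEJ723.

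Lymphocytes were the highest class in one library. T/NK-like cells, with the T cell receptor genes and Nkg7 among 10 markers of which none was at 0 in any library, stood at 2690 CPM in NEJ634, 2395 in NEJ687, 1864 in NEJ709, 1218 in NEJ723, 1081 in NEJ638, 1348 in NEJ654 and 1711 in NEJ677. Only in NEJ677 (809 cells) was it the highest class, at 2.10 times ambient. Its level there was 1640 CPM without cells of shared barcodes and 938 CPM as a mean over cells, where promyelocyte-like cells were higher. After thinning, 4.94% of the T/NK-like cells of NEJ677 had at least 3 UMIs of the 40 genes, against 0.827% for the ambient profile. With the deepest cells only, those over the order-of-magnitude limit, T/NK-like cells reached 4376 CPM in NEJ687 and 3313 in NEJ723. Over 2-fold higher were 34 of 40 genes in T/NK-like cells of NEJ677 (8.74% of all genes tested), with Mki67 at 128 CPM, Top2a at 118, Birc5 at 116, Ube2c at 111, Nusap1 at 54.6 and Cdk1 at 33.0. The median log2 difference was 1.63, beside 0.03 for all genes. The counts were 0 of 40 in NEJ634 (11.2%), 0 in NEJ687 (8.77%), 1 in NEJ709 (12.2%), 0 in NEJ723 (5.43%), 1 in NEJ638 (10.9%) and 9 in NEJ654 (8.67%). These counts depend on the other classes of each library, since their median is the base of the fold.

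The albumin promoter acts in hepatocytes and their precursors. Hepatocyte-lineage-like cells were named by markers alone, and in which classes Cre had acted was not tested. All 10 of their markers were over 2-fold higher there in each library with the class. The sum was 2682 CPM (2660 to 2704) in NEJ634 (4705 cells), 2002 in NEJ687 (220), 1706 in NEJ638 (335), 1472 in NEJ654 (518) and 342 in NEJ677 (929), a range of 7.84 times. Beside ambient these levels were 0.993, 0.528, 2.56, 0.947 and 0.420 times, so that NEJ638 alone stood above it; without haemoglobin and mitochondrial UMIs its ratio was 1.16. Against the ambient level without barcodes that were cells elsewhere, 1366 CPM in NEJ654, the cells of NEJ654 stood above it too. Several clusters held the class. One cluster held most of it in NEJ634 and NEJ687, at 2667 and 1990 CPM. A second held 317 of the 335 cells of NEJ638 at 1732 CPM, 247 cells of NEJ654 at 1665 and 143 of NEJ677 at 578, and another held 269 cells of NEJ654 at 928 CPM and 785 of NEJ677 at 205. NEJ709 (10 cells) and NEJ723 (4 cells) gave no value.

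In NEJ638 and NEJ654 most genes over 2-fold higher in hepatocyte-lineage-like cells were mitotic. The counts were 1 of 40 in NEJ634 (15.4% of all genes tested), 4 in NEJ687 (17.9%), 20 in NEJ638 (20.4%), 15 in NEJ654 (15.2%) and 6 in NEJ677 (15.1%); of these 1, 1, 18, 13 and 6 were mitotic. In NEJ634, NEJ687 and NEJ677 the share of the 40 genes was no higher than that of all genes. Cdc20 alone passed in all 5, at 39.1 CPM in NEJ634, 49.8 in NEJ687, 77.2 in NEJ638, 74.6 in NEJ654 and 16.5 in NEJ677, a median log2 difference of 1.48. Birc5 stood at 194, 178, 133, 100 and 18.5 CPM and Kif20a at 18.0, 17.7, 41.8, 19.0 and 9.94 CPM in the same order. Replication genes were 0.309 of mitotic genes in NEJ638 and 0.339 in NEJ654, and 0.613, 0.799 and 0.544 in NEJ634, NEJ687 and NEJ677. The licensing genes Mcm2, Mcm3 and Mcm4 had median log2 differences of -0.48, -0.54 and -0.42.

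Among further classes, biliary epithelial-like cells were numerous only in NEJ723, where 2175 cells stood at 3011 CPM, 1.66 times ambient, at a median depth of 1036 UMIs. The same cluster held 518 cells of NEJ687 at 5466 CPM and 145 of NEJ634 at 3926 CPM. These were left out as near-ambient, with overlaps of 0.814 and 0.809, just over the limit of 0.8. At Leiden resolution 2 a cluster of 398 cells at a median of 32776 UMIs, mostly of NEJ723, kept this name, and a cluster of 2278 at a median of 951 UMIs received none. In the named cluster the mean log2 fold was 3.86 for the biliary list and 2.17 for the next, the hepatocyte-lineage list. The study describes a tumor-like cluster, with Epcam and Krt19 among its raised genes, as dominant in NEJ723. Whether the biliary epithelial-like cells belong to that cluster was not tested. Endothelial-like cells stood at 1753 CPM in NEJ638 (2216 cells, 2.63 times ambient), 1042 in NEJ654 and 583 in NEJ677, the latter both below ambient; in NEJ677 they stood above the 495 CPM of the ambient level without barcodes that were cells elsewhere. Macrophage-like cells of NEJ638 reached 2425 CPM, 3.64 times ambient. B-like cells stood at 3006 CPM in NEJ723, 1.66 times ambient, and at 1976 in NEJ638, 2.96 times ambient. Without haemoglobin and mitochondrial UMIs in either total, macrophage-like, B-like and endothelial-like cells of NEJ638 were 1.64, 1.43 and 1.20 times ambient, and B-like and biliary epithelial-like cells of NEJ723 1.48 and 1.43 times.

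Other cell cycle genes outside the 40 were read in erythroid-like cells from lists by function. Of 30 other mitosis genes 21, 22, 16, 15 and 25 were over 2-fold higher in NEJ634, NEJ687, NEJ709, NEJ723 and NEJ638, and of 25 other replication genes 11, 17, 5, 8 and 16. Of all genes tested 5.43%, 5.59%, 5.66%, 3.74% and 6.48% were over 2-fold higher there. Of 11 transcription regulators 4, 5, 4, 4 and 7 were. Among them E2f2 and E2f8, E2F family members (median log2 difference 3.13 and 2.59), Mybl2, a partner of the MuvB complex (1.91), and the retinoblastoma gene Rb1 (1.52) passed in all 5 libraries, as did the CDK4/6 inhibitor gene Cdkn2c (1.61), thymidine kinase Tk1 (1.80) and Cdca8, a subunit of the Aurora B complex (2.04). Of 6 G1 cyclins and kinases 1, 1, 0, 0 and 0 were over 2-fold higher and 2, 2, 4, 4 and 4 over 2-fold lower; Ccnd2 (-3.34) and Cdk6 (-1.96), and Rbl2 of the regulators (-1.67), were over 2-fold lower in all 5. Of all genes tested 24.8%, 23.7%, 38%, 25.9% and 34.5% were over 2-fold lower there. Of 7 CDK inhibitors (6 tested in NEJ709) 1, 1, 1, 1 and 2 were over 2-fold higher. In promyelocyte-like cells of NEJ634, NEJ687, NEJ709 and NEJ723, 16, 23, 17 and 21 of the 25 other replication genes were over 2-fold higher. Of all genes tested 11%, 12%, 17.7% and 9.47% were. In T/NK-like cells of NEJ677, 24 of the 30 other mitosis genes were over 2-fold higher, beside 8.74% of all genes tested.

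The 40 genes varied together over classes and libraries, as a description over 64 pools of at least 50 cells, which share libraries, depth and ambient RNA. Pearson's r of each gene's log2(CPM + 5) with that of the other members was highest for Ccna2 (0.97) and lowest for Kif23 (0.30) and Pcna (0.67). Kif23 was highest in mature neutrophil-like cells of NEJ677, at 154 CPM. The widest range over pools was that of Ube2c (7.70 on the log2 scale) and the narrowest that of Kif20a (3.23). Among 5909 genes outside the lists, those most like the sum were the mitotic kinesin Kif15 (r = 0.93), the cohesin acetyltransferase Esco2 (0.92), Tacc3 (0.92) and Aspm (0.92) of the spindle, Diaph3 (0.91), the replication checkpoint gene Clspn (0.91), Atad5, which unloads Pcna from DNA (0.91), the noncoding RNA Lockd (0.90), the linker histone gene Hist1h1b (0.90) and Tipin of the replication fork (0.89).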

How the data were processed

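Single-cell RNA sequencing matrices of 7 mouse liver libraries were analysed, in which the authors deposited raw UMI counts for every barcode. The file headers name Cell Ranger 4, and the processing notes and methods Cell Ranger 6.0 with introns counted; which run made the files was not settled, and the genome build is not given in the sources used here. Gene positions were taken from GENCODE M21 (GRCm38), where 32158 of 32285 gene IDs were found. The series text speaks of nuclei, the labels of cells.

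Cells were called from each library's raw counts: barcodes over the 99th percentile of the top 3000 divided by 10 (the order-of-magnitude limit), and barcodes of at least 500 UMIs that differed from the ambient profile (ranks 45000 to 90000) in 10000 Monte Carlo draws at an adjusted p of 0.01, for at most 20000 tested barcodes, a limit reached in NEJ634, NEJ709 and NEJ723. Barcodes over 20% mitochondrial UMIs were removed. By its own threshold Scrublet called 9.09% doublets in NEJ634 but no more than 0.0379% in any other library, and so had not worked; the cells with the highest scores were removed at 0.8% per 1000 cells instead, leaving 72734 of 81641. The libraries were clustered together (scanpy 1.11.5, 2000 variable genes, 40 components, 15 neighbours, Leiden resolution 1), and clusters were named from 154 markers of 17 classes where the mean log2 fold of a list was at least 1.5, led the next list by 1 and had 3 markers up 2-fold.

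UMIs were pooled by library and class and tested nowhere, since the labels define no groups; names of genes followed a rule of role, level and range. Python 3.11.15, numpy 2.4.6, scipy 1.17.1 and pandas 2.3.3 were used, and the scripts were tested on simulated data. Total depth was 40214395 to 132485391 UMIs, where 3 counts correspond to 0.0385 to 0.166 CPM over a library's cells. The 40 genes and the lists were chosen with earlier results of these data known, and the limits for naming and for near-ambient pools were set after the data were seen.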

Additional observations from a re-analysis of the deposited data

Results flagged for a closer look

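The 40 genes were also counted in barcodes outside the analysed cells, and these values are listed because they lie in data the report does not use and above the level that a count of 0 allows. Barcodes left uncalled above 500 UMIs, within the 20% mitochondrial limit and outside the ambient ranks, held them at 3004 CPM in NEJ634 (22674 barcodes), 4937 in NEJ687 (824), 2394 in NEJ709 (10041), 1942 in NEJ723 (9563), 746 in NEJ654 (426) and 236 in NEJ677 (239). These levels were 1.11, 1.30, 0.939, 1.07, 0.480 and 0.289 times the ambient level of the same library. In NEJ638 all 7122 barcodes within both limits were called, so that none was left to read; barcodes over the mitochondrial limit were read in no library.

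Cells removed as doublets held the 40 genes at 3126 CPM in NEJ634, 6335 in NEJ687, 2819 in NEJ709, 3717 in NEJ723, 2243 in NEJ638, 652 in NEJ654 and 1033 in NEJ677. Relative to the analysed cells of the library these were 0.954, 1.16, 0.921, 0.954, 1.41, 0.655 and 1.68 times. Dividing cells hold more RNA than resting ones, and whether some of the removed cells were single dividing cells was not tested.

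Barcodes of high haemoglobin share were also counted among those within both limits that were not called as cells, of which NEJ638 had none. Over 60% haemoglobin there were 94 in NEJ687, 28 in NEJ709, 13 in NEJ634, 11 in NEJ677, 9 in NEJ723 and 0 in NEJ654, beside 2035, 295, 136, 855, 4510 and 388 kept cells in the same order.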

How the results depend on the processing

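No paired test was made, and comparisons of classes and bins are described within each library. Of 115 values of the main comparisons under the alternatives, 85 stayed within their counting interval (counts within 1.5 times) and 30 moved by more. A change of direction could be read only for the ratio of promyelocyte-like to mature neutrophil-like cells, which ran from 1.88 to 6.22. Of 519 median log2 differences of single genes in erythroid-like cells, 448 stayed within the range over libraries. The highest over the lowest library (8.90) was 10.6 with cells over the order-of-magnitude limit only, 8.50 with every barcode over 500 UMIs, 8.48 with no doublet removal, 9.75 without haemoglobin and mitochondrial UMIs in the total, 7.50 as a mean over cells, 8.31 without Mki67 and 9.43 without shared barcodes. For hepatocyte-lineage-like cells (7.84) it was 7.32 with that limit only, 6.36 with every barcode, 7.05 with each library clustered on its own and 10.0 as a mean over cells.

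The ratio of replication to mitotic genes in erythroid-like cells (0.394) was 0.439 with that limit only, 0.462 with no doublet removal, 0.418 at Leiden resolution 2, 0.447 with cell cycle genes kept in the clustering, 0.361 with each library clustered on its own, 0.333 as a mean over cells, 0.509 without Mki67, 0.428 without the top gene of each set and 0.425 without NEJ634 and NEJ709. The median count of genes over 2-fold (35) was 13 with each library clustered on its own and 9 at over 4-fold. The thinned share with a UMI (54.2%) was 69.9% with that limit only, 63.9% with each library clustered on its own and 37.3% for at least 3 UMIs.

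Clustering each library on its own also turned the sign of the median log2 differences of Cenpa (-0.19), Mcm3 (-0.31), Mcm6 (-0.29), Pcna (-0.67), Kif23 (-0.23) and Bub1b (-0.10). It called 1488 cells of NEJ638, 613 of NEJ654 and 865 of NEJ677 erythroid-like, at 1092, 399 and 181 CPM, and the class was then highest in 4 of 7 libraries; as a mean over cells it was highest in 4 of 5. Without NEJ634 and NEJ709 it was highest in 3 of 3, and the level was lower at over 60% than at under 20% haemoglobin in 2 of 2, as it was in 2 of 2 with the order-of-magnitude limit only. The ratio of promyelocyte-like to mature neutrophil-like cells (5.03) was 3.24 with that limit only and 1.88 with no doublet removal, and had no value at resolution 2, with cell cycle genes kept or with every barcode, where no cluster was named mature neutrophil-like. The level at over 60% over that at under 20% haemoglobin moved by over 1.5 times in 12 of 50 values, from 0.183 to as much as 0.534 in NEJ723 and from 0.289 to 0.612 in NEJ634. Depth limits small classes: in NEJ677 the 22 promyelocyte-like cells held 40 UMIs of the 40 genes. The causes of these moves were not tested.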
